A study of Mus musculus with 3 samples.

Results

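The comparison concerned 12954 cytosines of mouse mRNA and other transcripts that were listed as carrying 5-methylcytosine (m5C) both in germinal vesicle (GV) oocytes and in metaphase II (MII) oocytes. They were chosen by position and strand alone, as the entries that the GV list of 15910 sites and the MII list of 20694 sites had in common, and they made up 81.4% of the GV list and 62.6% of the MII list. The lists together held 23650 distinct sites, and all lists of the series held 40298. GV oocytes, the fully grown oocytes still arrested in meiotic prophase, came from minced ovaries of wild-type C57BL/6J females of 7 to 8 weeks, 48 h after 10 IU of PMSG (pregnant mare serum gonadotropin). MII oocytes, the ovulated eggs arrested in the second meiotic division, were taken from oviducts of females of the same strain and age. These females had received 10 IU of PMSG and, 12 h before collection, 5 IU of hCG (human chorionic gonadotropin). Doses and ages are those of the labels, while the study's methods give 10 IU of hCG and females of 7 to 10 weeks. Each stage was 1 bisulfite library made from pooled cells, with hyaluronidase named for the removal of surrounding material. There was thus 1 library per stage and no replicate check, and a difference between stages and a difference between libraries cannot be told apart. All tests below compare these libraries, and their p-values and intervals cover counting error only.

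RNA bisulfite treatment turns unmethylated cytosine into uracil, so that a cytosine still read as C counts as methylated. The m5C level of a site is its share of unconverted reads, and coverage is the number of reads over it. In mRNA the mark is written mainly by NSUN2, whose sites are usually followed by G bases (Type I), and by NSUN6, whose sites begin a CUCCA motif in a stem-loop (Type II). Between the GV and MII stages transcription is silent, while stored maternal mRNAs are translated, deadenylated and degraded, so that the remaining mRNA pool is the one laid down during oocyte growth.

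The sites with the widest rises and falls, and single sites from transcripts typical of oocytes, lay in the following sequences of the GRCm38 genome, written 5′ to 3′ as RNA on the gene's strand. Each shows 10 bases on either side of the methylated cytosine. Capitals mark that cytosine and any G among the next 4 bases for Type I sites, and the whole CUCNA motif for Type II sites. The first 4 are among the 6 steepest rises at 100 reads or more, the next 3 are among the steepest falls, and the next 4 come from zona, growth factor and mRNA decay genes. The final 3 are the Type II sites with the largest rises.
Vrtn, chr12:84649573-84649593, plus strand: gccacuccauCcaGGgaggca
Cyp4f39, chr17:32491193-32491213, plus strand: uggccugacuCuaaGguauac
Bhlhe41, chr6:145862951-145862971, minus strand: guggcgccccCGGGGccgcug
Sipa1l3, chr7:29371190-29371210, minus strand: uaugacccugCGGcGgaaugg
Gsk3b, chr16:38241284-38241304, plus strand: guugcagaugCcaGcuuagga
Ccni, chr5:93182925-93182945, minus strand: gcugacuacuCGGGGugagac
Rpl34, chr3:130729122-130729142, minus strand: ccccuggcaaCaGGauuguuu
Zp1, chr19:10919404-10919424, minus strand: acaguauucuCaGcugauuac
Zp3, chr5:135980209-135980229, plus strand: uggcuuuugcCGGGuggaacu
Gdf9, chr11:53437339-53437359, plus strand: cuagggcgguCaGGcaucggu
Btg4, chr9:51117943-51117963, plus strand: ucuggcacauCuucugaugaa
Il17rd, chr14:27103004-27103024, plus strand: gagcucccacCUCCAugaggc
Rab27a, chr9:73095574-73095594, plus strand: cucuccucgcCUCCAggaggg
Mapkbp1, chr2:120016845-120016865, plus strand: gccuggaguaCUCUAagccag

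m5C levels were higher in the MII library at most shared sites. The median level was 20.9% in GV (quartiles 14.4% and 34.2%) and 26.5% in MII (18.04% and 42.4%). The number of sites at 50% or more went from 1632 (12.6%) to 2389 (18.4%). The level was higher in MII at 9970 sites (77.0%), with a median difference of 4.87 percentage points and quartiles of 0.46 and 10.1 points. The middle 90% of the sites differed by between -8.47 and 20.4 points. By Fisher's exact test (two-sided, adjusted by Benjamini-Hochberg over all 12954 sites), 2538 sites were higher in MII (19.6%) and 125 were lower (0.965%). Sites that rose past the test gained a median of 12.2 points and lay in 1653 genes, and those that fell lost a median of 19.5 points and lay in 110 genes. The 10291 sites that did not pass the test had a median difference of 3.31 points, at a median of 98 reads in the less covered library, against 333 reads for the sites that rose. The ordering of sites was largely kept, with a Pearson correlation of levels of 0.885 and a Spearman correlation of 0.825 over the 12954 sites, which share libraries and, in part, reads.

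**Figure D1:**
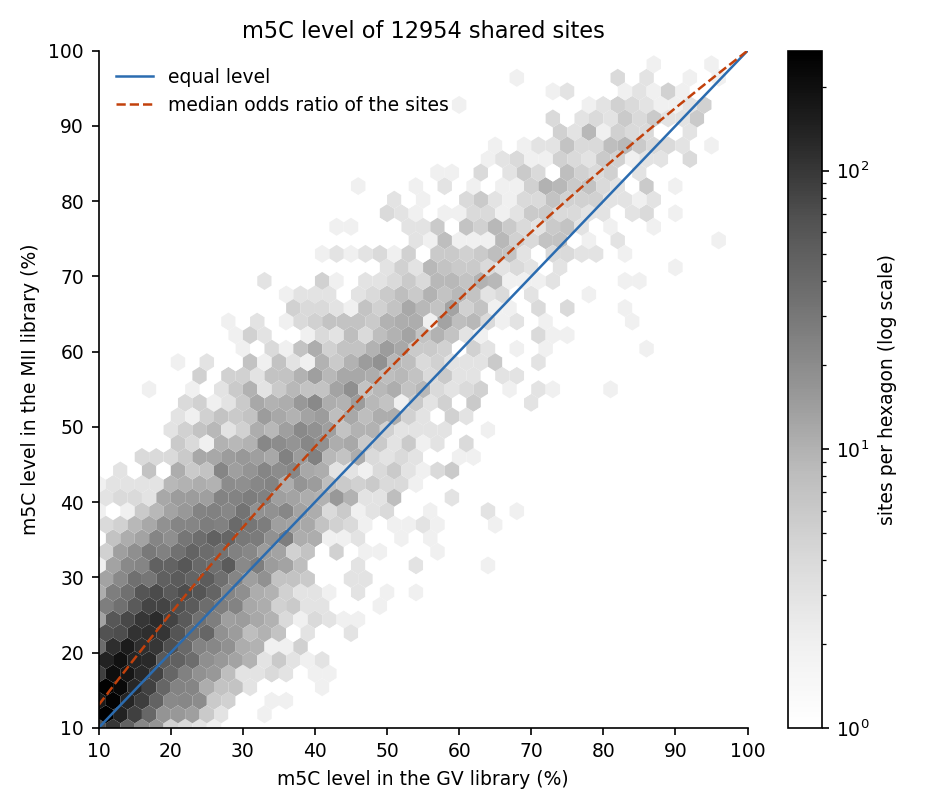
m5C level (%) in the MII library against the level in the GV library for 12954 shared sites, with the shade of each hexagon giving the number of sites on a log scale. The bulk of the sites lies above the solid line of equal level and along the dashed line, which marks the median odds ratio of 1.35.

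The median odds ratio lay between 1.18 and 1.49 over groups of sites by mean level. The median odds ratio of being unconverted, MII over GV, was 1.35, which is 0.43 on the log2 scale. With sites grouped by the mean of their GV and MII levels, the median odds ratio was 1.36 at 15 to 20%, 1.40 at 20 to 30%, 1.49 at 40 to 50% and 1.49 at 80% or more. It was 1.18 below 15%, where a list that begins at 10% leaves little room below. In percentage points the median difference was 9.83 at mean levels of 40 to 50% and 4.51 at 80% or more. Grouped by the GV level alone, which is one of the compared values, the 277 sites at 80% or more differed by a median of 0.39 points. Their median odds ratio was 1.02, against 1.41 for sites below 15% in GV. Unconverted reads expected from incomplete conversion were recovered per gene from deposited p-values, for 12619 GV and 12726 MII sites, since p-values too small to invert gave none for some of the most strongly called sites. They had a median of 0.295% in GV and 0.418% in MII, a difference of 0.112 points. The test was then made against the odds ratio of 1.35, called the common shift here. By it 417 sites (3.22%) were higher and 281 (2.17%) were lower. These shares depend on depth. Of the 555 sites with at least 1000 reads in each library, 95 were higher and 36 lower by it.

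**Figure D2:**
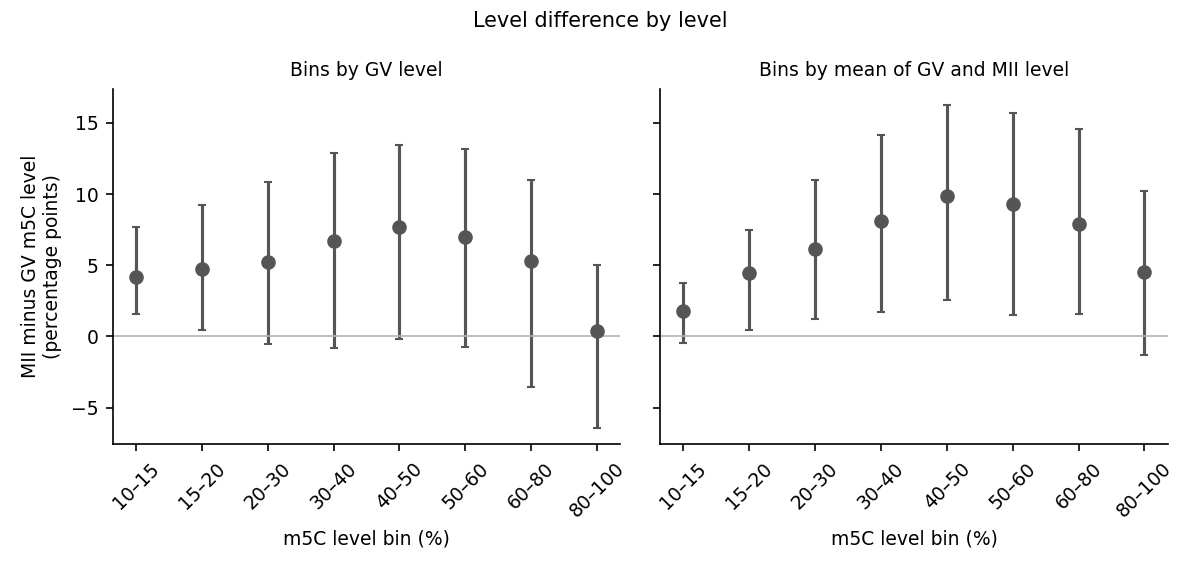
Median difference in m5C level, MII minus GV, in percentage points for sites grouped by GV level (left) and by the mean of both levels (right), with bars from the lower to the upper quartile of the sites. In the highest bin the median is 0.39 points on the left and 4.51 points on the right.

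Deeper coverage gave a larger share of sites past the test and a slightly larger difference. Coverage at shared sites had a median of 151 reads in GV and 126 in MII. The 555 sites with at least 1000 reads in each library, in 318 genes, differed by a median of 5.63 points, and 523 of them were higher in MII. Of these, 423 passed the test as higher (76.2%) and 11 as lower. At 20 to 50 reads the median difference was 4.18 points and 4.48% of sites passed as higher. Medians for single chromosomes lay between 3.89 and 5.72 points over all 20 chromosomes with sites.

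Type I sites had a larger median difference than Type II sites. The 12182 Type I sites had a median difference of 4.99 points, and 20.2% of them were higher past the test. The 765 sites at the start of CUCNA had a median difference of 3.15 points, with 78 higher (10.2%) and 11 lower (1.44%). The median odds ratios were 1.36 and 1.22. In the 531 genes that held both kinds, the gene's mean difference had a median of 5.45 points over Type I sites and 3.23 points over Type II sites, and the Type I mean was the larger in 327 genes (61.6%). The difference between the kinds has no replicate behind it and was not tested. Coverage was similar, with a median of 152 GV reads for Type I and 143 for Type II.

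Position in the transcript went with small differences only. Sites in 3′ UTRs (2338 sites) differed by a median of 5.39 points, those in 5′ UTRs (1411) by 4.95 points and those in coding sequence (8984) by 4.72 points. Within coding sequence the medians at the first, second and last codon position were 4.59, 4.88 and 4.75 points. Among Type I sites the number of G bases at the next 4 positions made little difference, with medians of 4.94 points with 1 G, 4.98 with 2, 4.98 with 3 and 4.96 with 4. The 181 Type I sites without any G there had a median of 5.87 points.

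Of the 6 steepest single rises, 5 lay in coding sequence, as did 69.3% of all shared sites. By rule, the 6 largest rises and the 6 largest falls past the test among sites with at least 100 reads in each library were taken. Vrtn, a vertebra development factor, has its site in exon 3, and it went from 34.8% in GV (330 reads, 95% Wilson interval 29.9 to 40.1%) to 75.3% in MII (231 reads, 69.4 to 80.4%). Pik3c2a, a class II phosphoinositide kinase, went from 32.8% (134 reads) to 72.6% (146 reads). Cyp4f39, a cytochrome P450 of fatty acid hydroxylation, went from 34.9% (218 reads) to 73.6% (106 reads). Their intervals did not overlap. Bhlhe41, a transcriptional repressor of the circadian clock, went from 47.5% (101 reads) to 85.2% (115 reads), and Sipa1l3, a cell polarity protein, from 32.3% (198 reads) to 66.7% (165 reads). A 3′ UTR site of the kinase gene Taok1 went from 37.3% to 71.8%. All 6 were also higher than the common shift, with adjusted p-values of the exact test of 8.43e-07 or lower. The sites were chosen by these same reads, so the intervals and p-values are no separate support.

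Of the 6 steepest falls, 3 lay in coding sequence and 3 in 3′ UTRs. In Gsk3b, the kinase of glycogen and Wnt signalling, a 3′ UTR site went from 72.9% (166 reads, 65.7 to 79.1%) to 39.8% (133 reads, 31.9 to 48.3%). In Ccni, which encodes an atypical cyclin, a 3′ UTR site went from 56.9% (204 reads) to 26.0% (219 reads). The coding site of Trim35 went from 68.8% to 38.3%, and the coding site of Fkbp5, a steroid receptor co-chaperone, from 46.0% (139 reads) to 19.4% (309 reads). In Calu, for a calcium-binding protein of the endoplasmic reticulum, the level went from 81.0% to 54.2%. Rpl34, a protein of the large ribosomal subunit, had the deepest of the falls, from 64.7% of 900 reads (61.5 to 67.7%) to 39.1% of 657 reads (35.5 to 42.9%), with an adjusted p of 5.34e-21 by the exact test. The GV and MII intervals were apart for each of the named falls, which had been chosen by the same reads as the largest past the test.

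**Figure D3:**
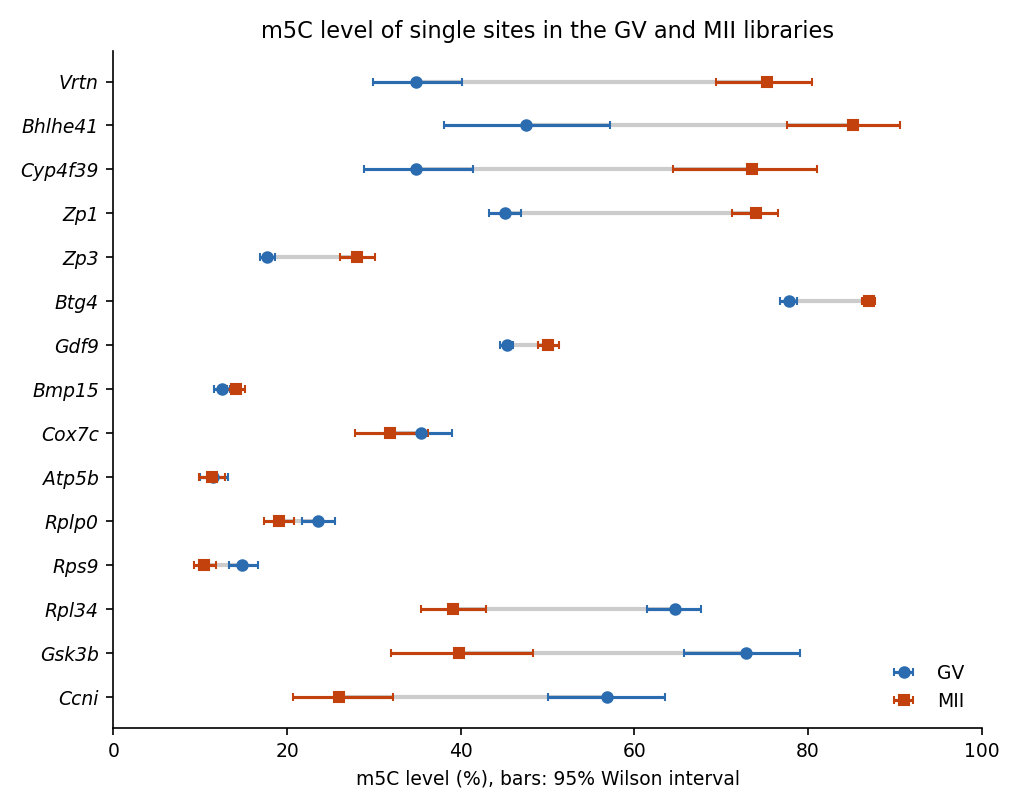
m5C level (%) of 15 single sites in the GV (circles) and MII (squares) libraries with 95% Wilson intervals, 1 row per gene. Vrtn, Zp1, Zp3, Btg4 and Gdf9 are higher in MII, Cox7c, Atp5b and Bmp15 have overlapping intervals, and Rpl34, Gsk3b and Ccni are lower in MII.

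The deepest coverage fell on Zbed3, a zinc finger protein that is part of the maternal cytoplasm of the oocyte, with 4 of the 6 sites whose lower coverage was highest. The sites lie close together in its coding exon 2 and share reads.
Zbed3 site A, chr13:95336327-95336347, plus strand: ugugcaccugCcGGagcugaa
Zbed3 site B, chr13:95336474-95336494, plus strand: ccagcgggagCuGGagcugga
Zbed3 site C, chr13:95336549-95336569, plus strand: ggcucugaagCaGGaggcaca
Zbed3 site D, chr13:95336604-95336624, plus strand: gagcgugaagCacuGaguaag
Site A rose from 13.1% of 37606 reads to 21.2% of 45077 reads, site C from 11.1% of 60941 reads to 19.0% of 74120 reads, and site D from 15.1% of 55667 reads to 23.0% of 66327 reads. Site B, already almost fully methylated, rose from 94.1% of 44791 reads to 95.5% of 55823 reads. All 4 passed the exact test, and the 3 low sites, but not the high one, also exceeded the common shift. The other 2 of the deepest sites were in Uchl1, a ubiquitin hydrolase abundant in oocytes, at 12.0% and 14.9% (13428 and 11470 reads), and in Gm47305. Gm47305 overlaps Rn7s2, a gene of the 7SL RNA of the signal recognition particle, and was read at 16.1% of 11410 reads and 15.1% of 18411 reads, which did not pass (adjusted p = 0.0573 by the exact test).

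The sites with the highest levels in both libraries differed little, since a choice by the lower of both levels leaves little room. The 331 sites with a mean level of 80% or more had a median difference of 4.51 points. By the lower of both levels at 100 reads or more, the highest were Insm1 (95.99% and 96.7%), Tent5c (94.9% and 94.6%), the Zbed3 site above, Alg10b (94.6% and 93.1%), Foxo3 (92.9% and 93.3%) and Tex19.1 (92.9% and 96.1%). Apart from the Zbed3 site, none of these passed the exact test at up to 1499 reads. Foxo3, the forkhead factor that holds primordial follicles dormant, carries its site in the 3′ UTR, as does Tent5c, a poly(A) polymerase.

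Of the Type II sites past the test at 100 reads or more, the largest rises were in Il17rd, a receptor that restrains FGF signalling, from 63.1% to 83.8% (168 and 136 reads), in Rab27a, a GTPase of vesicle transport, from 40.2% to 60.8% (249 and 181 reads), and in Mapkbp1, a kinase scaffold, from 43.2% to 63.4% (220 and 153 reads). None of the 3 departed from the common shift of odds.

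Differences were then combined over the sites of a transcript. By a test stratified by site (Cochran-Mantel-Haenszel, two-sided, adjusted by Benjamini-Hochberg over 5387 genes), 1884 genes were higher (35%) and 97 were lower (1.8%). Relative to the common shift 363 genes (6.74%) were higher and 249 (4.62%) lower. Neighbouring sites share reads, so that these p-values are too small. Genes with 1 shared site made up 495 of the higher and 41 of the lower genes. Such a gene can pass this test, which has no continuity correction and is adjusted over genes, while its site does not pass the exact test. Gm47305 was lower by the gene test (adjusted p = 0.0358) but did not pass the exact test above. In the 1041 genes with at least 4 shared sites, all sites were higher in MII in 361 genes (34.7%), all were lower in 11, and 669 were mixed. The gene's mean difference there had a median of 5.45 points with quartiles of 2.68 and 7.91 points. The differences of neighbouring sites had a Pearson correlation of 0.298 at adjacent cytosines (277 pairs), 0.233 at 11 to 50 bases (641 pairs) and 0.157 beyond 1000 bases (1660 pairs), which are descriptions over pairs that share libraries.

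Among genes with at least 4 sites past the gene test, Vrtn rose most, by 26.2 points on average. Its 4 sites, all in exon 3, went from 34.8 to 75.3%, 33.9 to 62.7%, 18.6 to 42.5% and 84.1 to 95.9%. Rimbp2, a synaptic scaffold, and Heatr1, a ribosome biogenesis factor, each rose by 20.3 points. Marf1, an RNA-binding nuclease required for oocyte meiosis, rose by 19.4 points over 4 sites and 1389 GV reads, and Adnp2 by 18.9 points. In each of these 5 genes all 4 sites were higher in MII. The genes were chosen by their mean rise, so this shared direction is no separate support. Tested by its deepest site alone, Vrtn, Marf1 and Adnp2 each passed, while Rimbp2 and Heatr1 did not.

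The 5 genes with the most shared sites all rose past the gene test. By the deepest site of each gene alone, only Kmt2b and Cep170b passed. Lama5, a laminin chain, had 20 sites and a mean difference of 7.25 points, with single sites between -7.12 and 17.9 points. Kmt2b, the histone H3 lysine 4 methyltransferase of the growing oocyte, had 19 sites and 5.95 points, Cep170b 19 sites and 5.18 points, and Wdfy3, an autophagy adaptor, 17 sites and 5.81 points. Mn1, a transcriptional co-regulator, stood higher, with all 17 sites up and a mean of 12.8 points, and it alone of these 5 also exceeded the common shift.

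The largest mean falls among genes of this kind were in Cebpb and Pigo, both at 10.1 points. In Cebpb, a transcription factor of the ovulatory response in granulosa cells, the 4 sites went from 20.4 to 14.7%, 15.5 to 10.5%, 29.2 to 18.9% and 56.1 to 36.9%, each past the site test. Pigo, a GPI anchor enzyme, was mixed, with single sites between -40.2 and 29.0 points. Gpc1, a heparan sulfate proteoglycan, was lower at all 8 sites, by a mean of 9.02 points, and 2 of the 8 passed the site test. Slc7a1 and Slc41a1, an arginine and a magnesium carrier, had means of -8.56 and -8.30 points. Tested by the deepest site alone, Cebpb and Gpc1 passed, while Pigo, Slc7a1 and Slc41a1 did not. The genes were chosen by their mean fall, so a shared direction of their sites is no separate support.

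Most transcripts for the oocyte's secreted and zona proteins rose in level, and 3 of 7 had coverage more than 2-fold below the median gene, beside 1.37% of all genes. Of the 12 genes listed, 7 had a shared site, 5 of those were higher and none lower, beside 35% and 1.8% of all genes, and their median difference was 4.78 points against 5.23 points over all 5387 genes. All 7 had at least 1000 reads in all, a depth at which 67.4% of genes were higher. Zp1, a zona pellucida crosslinker, went from 45.1% of 2783 reads to 74.0% of 1034 reads, with an adjusted p of 2.6e-55 by the exact test. Zp3, the zona protein of sperm binding, went from 17.7% of 7358 reads to 28.0% of 1858 reads. Gdf9, the growth factor that drives cumulus expansion, went from 45.3% of 16549 reads to 50.1% of 6767 reads, which was a smaller rise than the common shift. Bmp15, its partner, was read at 12.5% of 5063 reads and 14.1% of 4264 reads and did not pass (adjusted p = 0.103 by the exact test). Fgf8 and Tgfb2 rose by means of 4.16 and 6.45 points, and Astl, for the cortical granule protease ovastacin, differed by 3.19 points without passing the gene test.

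Of 37 maternal effect genes, which the embryo needs from the egg, 25 had a shared site. Of these, 18 were higher and none lower, with a median difference of 5.87 points, beside 35% and 1.8% of all genes. Most were deeply read, and among the 18 with at least 1000 reads in all 16 were higher, beside 67.4% of all 1766 genes at that depth. Relative to the common shift 7 were higher and 1 lower. Btg4, the adaptor that recruits deadenylase to maternal mRNA, went from 77.8% of 7095 reads to 87.0% of 7940 reads. Its sequence above has no G among the 4 bases after the site. Tcl1 rose at 3 sites of its 3′ UTR, with the steepest from 11.7% of 3235 reads to 33.0% of 3163 reads, while the other two gained 6.33 and 4.76 points. Subunits of the subcortical maternal complex rose as well. In Tle6 a coding site went from 47.8% to 66.5% (4493 and 2762 reads), and its nearby Type II site from 10.1% to 14.3%. Khdc3 rose at all 4 sites by a mean of 13.2 points, and Ooep went up by 3.46 points. Khdc3 overlaps the annotated gene Gm20509 on the same strand. Tet3, the oxidase that acts on paternal DNA methylation, was higher at all 16 sites, by 0.59 to 23.1 points and a mean of 7.14 points. Zar1, the mRNA storage protein of the oocyte, went from 14.8% of 10251 reads to 20.7% of 8371 reads. Uhrf1 and Npm2 rose by means of 6.91 and 5.05 points, Dicer1 by 13.1 points, and the oocyte transcription factor Lhx8 by 23.2 points at a 5′ UTR site with 112 and 104 reads. The linker histone gene H1foo rose by 3.67 points, less than the common shift. Among the 7 that did not pass, Dnmt3a differed by -27.9 points at 26 and 27 reads, and Nlrp2 by 1.128 points.

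Some genes of the m5C pathway itself rose too. Of 19 listed writers, readers and erasers, 6 had a shared site, 3 were higher and none lower, beside 35% and 1.8% of all genes. By the deepest site of each gene 1 was higher, since Tet3 and Srsf2 did not pass. Tet3 is described above. Ybx3, a cold shock domain protein of stored mRNA, went from 76.5 to 84.6%, 19.6 to 29.2% and 16.5 to 18.4% at its 3 sites, of which the last did not pass. Srsf2, a splicing factor that binds m5C, rose by a mean of 2.51 points. Nsun3 and Nsun5, methyltransferases of mitochondrial tRNA and of rRNA, and Alkbh1 had 31 to 177 reads and did not pass.

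Lists of other oocyte functions had between 39.5% and 49.2% of their genes higher, not far from the 35% of all genes. By the deepest site of each gene, 22.4% of all genes were higher. The counts fell to 9 of 34 for the meiotic cell cycle, 15 of 61 for chromatin modifiers and 11 of 43 for ubiquitin ligases and proteasome. They fell to 8 of 31 for splicing factors, 11 of 31 for spindle and centrosome proteins and 16 of 49 for polyadenylation, translation and decay. For the meiotic cell cycle 15 of 34 genes were higher and none lower, with Espl1 (separase) up by 4.89 points over 8 sites, and Bub1b, a checkpoint kinase, at 1.72 points without passing. Map2k1, a kinase of the pathway that holds MII arrest, had a mean of -1.88 points and was below the common shift. For spindle and centrosome proteins 14 of 31 were higher and 2 lower, with Pcnt (pericentrin) up by 8.92 points and Cenpf by 7.45 points. For cytoplasmic polyadenylation, translation and decay 21 of 49 were higher and 1 lower, and Lsm14b and Edc4 rose by 3.58 points over 5 sites and 6.61 points over 11. For chromatin modifiers 30 of 61 were higher and 1 lower, with Kdm2b up by 4.12 points. For ubiquitin ligases and proteasome genes 17 of 43 were higher and none lower, and Rnf114, an E3 ligase of the oocyte, was up by 7.07 points over 9 sites. For splicing factors 13 of 31 were higher and 1 lower, with Prpf8 up by 2.28 points and Ddx46 by 8.25 points.

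Genes of the respiratory chain and mitochondrial import mostly did not pass the test. Of 21 with a shared site, 1 was higher (Timm44, an import motor subunit) and none lower, beside 35% and 1.8% of all genes, and the median difference was 1.39 points. Atp5b, the catalytic subunit of ATP synthase, was read at 14.6 and 12.2%, 13.3 and 13.7%, and 11.5 and 11.3% at its 3 sites, with 809 to 1690 reads. Cox7c, a cytochrome oxidase subunit, was read at 51.9 and 46.9% and, at the adjacent cytosine, at 35.4 and 31.8%. Both genes were lower than the common shift. Ndufa2, of complex I, differed by 1.95 points over 3 sites. Their coverage had a median change of 0.04 on the log2 scale relative to the median gene.

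The ribosomal protein genes that passed the test were lower in MII. Of 76 listed, 9 had a shared site, 6 were lower past the gene test (1.8% of all genes) and none higher (35%), with a median difference of -2.91 points and a range from -25.6 to 22.04 points. Rps9 fell at both sites, from 14.9 to 10.5% (1730 and 2108 reads) and from 27.7 to 16.6% (994 and 918 reads). Rplp0, of the ribosomal stalk, was at 23.6% of 1846 GV reads and fell to 19.0% of 2028 MII reads. Rps14 differed at 3 sites by between -5.35 and -0.66 points, with 1 past the site test, and Rpl23 fell from 23.4 to 16.1% at its deeper site. Rps27a, which encodes a ubiquitin fusion, fell from 21.97% of 710 reads to 12.5% of 559 reads at its coding site and was read at 12.0 and 23.5% at a 5′ UTR site that did not pass, so that its mean was positive although its gene test was lower. Rps12 and Rpl15 did not pass. Ribosomal proteins have many processed copies in the genome, and the assignment of reads to the gene is uncertain. The 21 bases around the Rps27a coding site stand 8 times in the chromosomes of GRCm38, and those around the first Rps9 site 2 times.
Rps27a, chr11:29547674-29547694, minus strand: ccaucacgcuCGaGGuugaac
Rps9, chr7:3705749-3705769, plus strand: gcggcuuguuCGcauuggggu
The copy annotated as Rps27a-ps2, with the same 21 bases, was read at 19.3% of 425 reads and 11.9% of 385 reads, also lower.

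**Figure D4:**
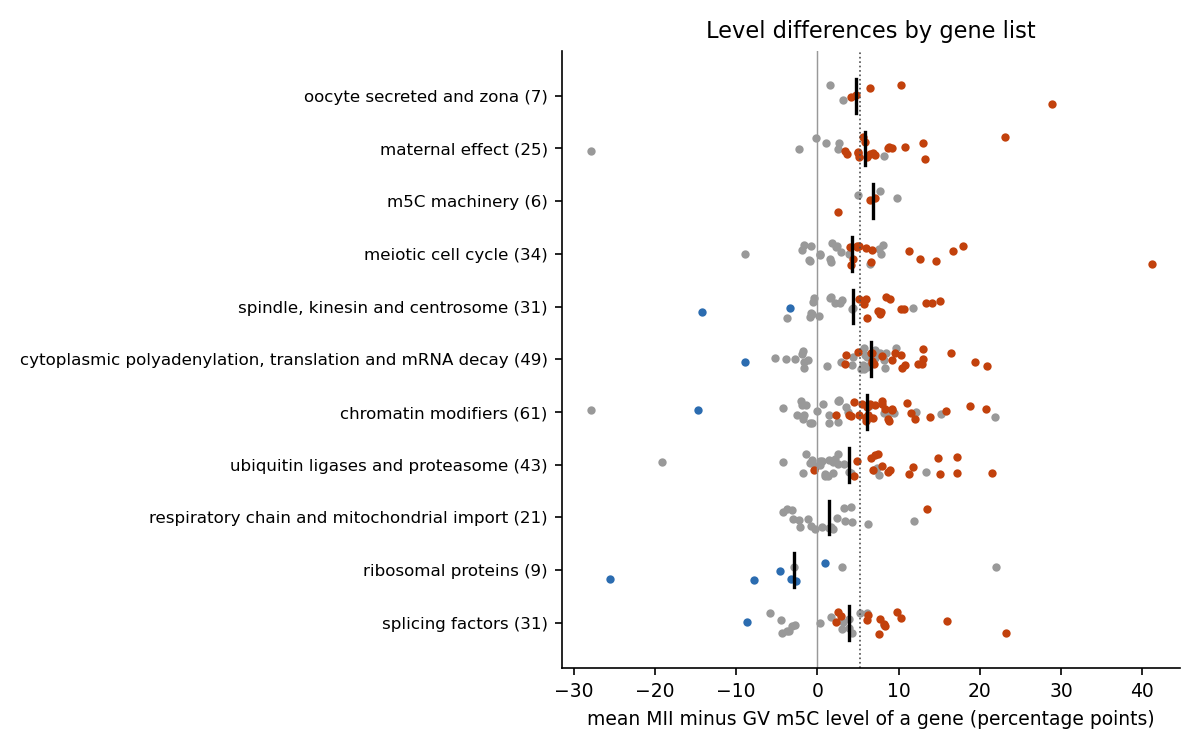
Mean difference in m5C level, MII minus GV, in percentage points for each gene of 11 lists, with the number of genes in brackets. Orange points were higher past the gene test, blue points were lower and grey points did not pass, black bars mark list medians and the dotted line marks the median of all genes, 5.23 points. The ribosomal protein median lies at -2.91 points and the respiratory chain median at 1.39 points.

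Coverage of shared sites changed little for most genes. Summed over a gene's shared sites, the median gene had 0.872 times as many reads in MII as in GV, and relative to that gene the quartiles were -0.23 and 0.20 on the log2 scale. Only 42 genes (0.78%) were more than 2-fold above the median gene and 74 (1.37%) more than 2-fold below. A gene enters only with a site of at least 20 reads called in both libraries, so transcripts largely lost or gained between them are left out. This measure has no test, and coverage cannot tell less RNA per cell from fewer cells of a type.

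The losses of coverage included well-read oocyte transcripts, whose levels mostly rose. Among genes with at least 3 shared sites, the largest was Dnmt1, the maintenance DNA methyltransferase, at -1.63 on the log2 scale (24138 and 6812 reads). All 5 of its sites rose, by 4.78 to 6.93 points, and passed the site test. Mid1, a microtubule-associated ligase, stood at -1.30 and rose by 15.6 points, and Cpeb1, the cytoplasmic polyadenylation regulator that is destroyed in maturation, at -1.125 with a rise of 7.93 points. Tmem102 and the nucleoporin gene Aaas were at -1.46 and -1.26 and did not pass the level test. Zp3 stood at -1.79, Zp1 at -1.23, Gdf9 at -1.09 and Khdc3 at -1.04. Of the 20 genes more than 2-fold below with at least 1000 reads in all, 15 were higher in level and none lower. This is not far from the 67.4% that were higher among all 1766 genes at that depth. Their median difference was 8.71 points.

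Genes with more coverage in MII had smaller or negative level differences. The 2197 genes between -0.5 and 0 on the log2 scale had a median level difference of 5.68 points and the 2360 genes between 0 and 0.5 one of 4.93 points. The 291 genes between 0.5 and 1 had 0.56 points, with 25 higher and 25 lower. The 38 genes between 1 and 2 had -7.37 points, with none higher and 12 lower, and the 4 genes above 2 had -11.8 points. Of the 97 genes that were lower, 39 (40.2%) had coverage up by over 0.5, as had 25 (1.33%) of the 1884 that were higher and 333 (6.18%) of all genes. Restricted to sites with at least 100 reads in each library, the groups from 0.5 to 1 and from 1 to 2 had medians of 0.06 points (76 genes) and -9.03 points (6 genes). Over all 5387 genes, coverage change and level difference had a Spearman correlation of -0.161.

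Among genes with at least 3 shared sites the largest gains of coverage were in Notch2, a receptor of the Notch pathway, at 1.22, Ndst1, a heparan sulfate enzyme, at 1.133, Ltbp3, a TGF-beta binding protein of the matrix, at 1.03, Man2a1, a Golgi mannosidase, at 0.99, and Acly, the cytosolic source of acetyl-CoA, at 0.98. Man2a1 fell at 3 of 3 sites, from 61.4 to 15.9%, 34.5 to 13.8% and 67.7 to 25%, with 31 to 109 reads. Ndst1 fell by a mean of 23.4 points, Notch2 by 11.6 points and Acly by 9.20 points, while Ltbp3 had -2.60 points and did not pass. Of genes with fewer sites, 3 that were picked after their values were seen lay in the same direction. Sdc1, a cell surface proteoglycan, went from 28.5% of 1457 reads to 13.1% of 3120 reads, and Actb from 14.6% of 787 reads to 11.2% of 1758 reads. Actb, with 1 shared site, passed the gene test (adjusted p = 0.0434) but not the exact test over the deepest sites of genes (adjusted p = 0.0698). Col4a2, a basement membrane collagen, went from 56.9% of 58 reads to 18.1% of 177 reads.

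The surrounding somatic cells were checked by 14 granulosa and cumulus markers. None had a listed site in GV, and 2 had 1 in MII, namely Amh with 96 reads and Cyp19a1 with 49 reads. The other 12, with Fshr, Foxl2, Has2, Ptx3 and Star among them, had none in either list, which holds methylated sites only and so says little about expression. The part of somatic cell RNA in the falls was not tested. Of 10 oocyte markers, 6 had listed sites in GV and 7 in MII, with up to 16549 reads for Gdf9, and Zp2, Oosp1 and Ddx4 had none in either.

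**Figure D5:**
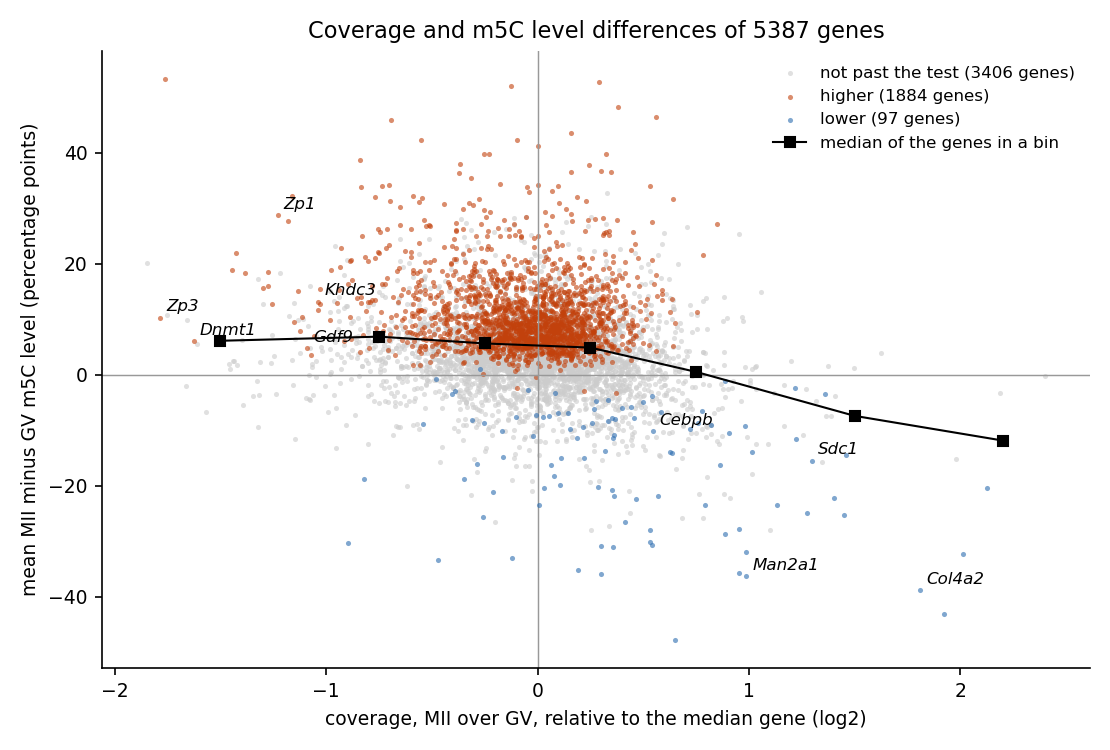
Mean difference in m5C level in percentage points against the log2 ratio of summed coverage, MII over GV, relative to the median gene, for 5387 genes. Orange points were higher, blue points lower and grey points did not pass the gene test, and black squares mark the median of the genes in each bin of coverage change. The squares lie near 5 to 7 points to the left of 0.5 and at -7.37 points between 1 and 2.

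Sites in long intergenic noncoding RNAs had the widest shift of the annotated transcript classes described. The 55 sites, in 43 genes, went from a median of 24.0% to 38.0%, a median difference of 12.0 points. Of them 50 were up, beside 77.0% of all shared sites. Past the test 19 (34.55%) were higher and none lower, beside 19.6% and 0.965% of all shared sites. Coverage was lower than elsewhere, with a median of 84 GV reads. The class was singled out after its values were seen. Several of its well-read sites lay in copies of one sequence. The window shown first below surrounded shared sites in 5 genes and stands 539 times in the chromosomes of GRCm38, and the window just beside it surrounded sites in 2 of the genes and stands 594 times, so that reads may come from any copy.
Gm11261, chr4:78661100-78661120, minus strand: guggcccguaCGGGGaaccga
Gm11261, chr4:78661084-78661104, minus strand: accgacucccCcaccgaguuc
At the first, the level went from 55.0% to 80.7% in Gm11261 (1599 and 709 reads), from 57.6% to 82.1% in Gm15298 (497 and 223 reads) and from 26.6% to 80% in Gm11815 (214 and 55 reads). In Gm15758 it went from 41.9% to 63.8% (2329 and 755 reads), and in the protein-coding gene 4930562C15Rik it was 30.5% and 37.0% (993 and 470 reads) and did not pass. At the second, it went from 12.6% to 26.0% in Gm11261 and from 13.04% to 34.2% in Gm15298. In all, 76 shared sites in 62 genes had 21 bases identical to those of a site in another gene. They differed by a median of 8.66 points, with 36 higher (47.4%) and 4 lower, beside 19.6% and 0.965% of all shared sites. The 48 lincRNA sites outside them still had a median difference of 9.09 points. Only identical windows were counted, so diverged copies may remain among those 48. Copies with the same window, picked here after their values were seen, could lie close to each other or far apart. Kbtbd7 went from 33.6% to 47.7% and Kbtbd6 from 32.2% to 46.4%, and Rtl8a from 15.1% to 26.3% and Rtl8b from 17.1% to 28.2%. By contrast, Fbxw26 went from 41.8% to 60.6%, while Fbxw14 with the same 21 bases went from 14.6% to 22.9%. Cgn went from 20.8% to 37.2%, while its copy BC021767 was read at 15.6% and 12.2% and did not pass.
Kbtbd7, chr14:79427130-79427150, plus strand: ugucgcucagCGaGGccaacg
Rtl8a, chrX:53643567-53643587, minus strand: ccuacaugcuCaGGcacaaca

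Sites listed for only 1 stage were shallower and lower. The 2956 sites of the GV list alone had a median coverage of 48.5 reads and a median level of 14.7%, and the 7740 of the MII list alone 80 reads and 13.6%. Their level in the other library is not known, since a site enters a list only with at least 20 reads, at least 5 unconverted reads and a level of at least 10%. For them a gain of new sites and a rise of existing ones above 10% cannot be told apart.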

How the data were processed

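RNA of pooled GV and MII oocytes was bisulfite converted and sequenced as 1 directional library per stage. The labels give poly(A) RNA and the study's methods rRNA-depleted RNA. Per the processing notes in the labels the authors trimmed reads with cutadapt 1.13 and Trimmomatic 0.36 and aligned them to mm10 (GRCm38) with HISAT2 2.10 and Bowtie2 2.2.9, while the study's reporting summary gives other versions of cutadapt and HISAT2. They deposited, for each called site, the coverage as a read count, the m5C level as a fraction and a p-value against the local conversion background. Only called sites (at least 20 reads, 5 unconverted reads and a level of 10%) were listed.

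Unconverted reads were recovered as level times coverage, whole within 2.9e-05. Sites were matched on position and strand. All 12947 shared chromosome sites were C on their strand in GRCm38, the other 7 lay on scaffolds, and 5385 of 5387 genes were found in GENCODE M21. Type II was CUCNA from the site on, and all other sites were Type I. Levels were compared with Fisher's exact test per site and a stratified test per gene, with Benjamini-Hochberg adjustment at 0.05, against equality and against the median odds ratio (scipy 1.17.1, numpy 2.4.6). The gene mean weights sites equally. Code was tested on simulated data. PCR copies carry no molecular identifiers. Levels of libraries with 0.295% and 0.418% background were not corrected in the values printed.

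Genes and sites named were the 6 largest rises and falls at 100 reads, the 6 deepest and 6 highest sites, 3 Type II rises, genes with extreme means over 4 sites, most sites or extreme coverage over 3 sites, all zona, maternal effect and m5C genes with a shared site, as far as the results turn on them, and the most-read genes of the other lists. The members and lists were chosen with earlier results of these data known. The list of the embryo library was used only for the total of 40298 sites in the series.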

Additional observations from a re-analysis of the deposited data

How the results depend on the processing

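The median difference stayed above 0 with coverage of at least 50 or 100 reads, a level of at least 20%, 1 site per gene or the background subtracted. More sites were higher than lower with both coverage limits, the level limit, Bonferroni adjustment and reads divided by 5, and more genes with both coverage limits, reads divided by 5 and the deepest site of each gene. With 100 reads, 77 sites and 54 genes were lower and the median difference was 5.19 points. With a level of at least 20% in both libraries, 1539 sites were higher and 82 lower and the median was 6.46 points. Subtracting the background of the gene, recovered in both libraries for 12572 sites, gave a median of 4.63 points. Dividing all reads by 5, as if each molecule had been read 5 times, left 87 sites higher and 3 lower, and 225 genes higher and 8 lower. Of 26 named sites, 14 no longer passed, and Gm47305, Insm1, Tent5c, Alg10b, Foxo3 and Tex19.1 had not passed before. Of the 6 largest rises and the 6 largest falls, only Vrtn and Rpl34 still passed. Bonferroni adjustment left 601 sites higher and 30 lower. Testing the deepest site of each gene left 1207 genes higher. Against the median odds ratio the balance changed to 417 higher and 281 lower sites and 363 higher and 249 lower genes. Of the named sites that had passed before, 5 no longer did, while Gm47305 now passed as lower. With sites of at least 50 reads, 12 genes had over 2-fold more coverage, and at 3-fold 8 genes were above and 8 below the median gene. The groups by coverage change at 100 reads were added after the data were seen. No paired analysis was possible because each stage had 1 library. At an unadjusted p under 0.05, 3996 sites passed, and with a median of 98 reads at sites that did not pass, differences of a few points were not detectable there.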
